A study of Mus musculus with 11 samples.

Results

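The genes described are 10 of the transforming growth factor beta (TGF-beta) pathway, chosen by name out of the 46603 genes in the count table: the ligands *Tgfb1*, *Tgfb2* and *Tgfb3*, the receptors *Tgfbr1*, *Tgfbr2* and *Tgfbr3*, the intracellular signal carriers *Smad3* and *Smad7*, and the latency proteins *Ltbp1* and *Ltbp3*. They were measured by mRNA sequencing of whole liver from 11 male B6.V-Lep ob/JRj (*ob/ob*) mice, which lack leptin. At an age of 5 to 6 weeks all 11 were switched to the AMLN diet, whose high content of trans-fat, fructose and cholesterol leads to metabolic dysfunction–associated steatohepatitis (MASH), and stayed on it for 15 weeks before and throughout 8 weeks of dosing. In that time 4 mice received INT-767, an agonist of the bile acid receptors FXR and TGR5, by gavage at 10 mg/kg once daily, and 7 received vehicle. Both groups therefore share the leptin deficiency, the diet and a liver biopsy before treatment, and no lean or chow-fed liver was analysed here. The question was whether these pathway genes, taken isoform by isoform, differed between treated and vehicle livers.

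As background, TGF-beta is the best known driver of collagen production by hepatic stellate cells, which turn into myofibroblasts in injured liver. Each ligand is secreted in a latent form, tied to its own propeptide and to a latent TGF-beta binding protein that anchors it in the matrix, and must be released before it can bind. The free ligand brings the type II receptor *Tgfbr2* together with the type I receptor *Tgfbr1*, which phosphorylates SMAD2 and SMAD3, while SMAD7 is induced by the pathway and inhibits it.

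The ligands lie on different chromosomes (GRCm38), *Tgfb1* at chr7:25687002-25705077 on the plus strand, *Tgfb2* at chr1:186622792-186705989 on the minus strand and *Tgfb3* at chr12:86056745-86079041 on the minus strand. No promoter window was available for *Tgfb3*. Promoters of the first and second are shown, and the sequences upstream of these isoforms are unlike each other. Each line gives the 250 bases before the transcription start, from RefSeq (GRCm38.p6), read 5′ to 3′ on the strand of the gene, at chr7:25686752-25687001 for *Tgfb1* and chr1:186705990-186706239 for *Tgfb2*. Capitals mark matches on either strand to the GC box GGGCGG, the TATA box TATAAA and the E-box CACGTG.
Tgfb1: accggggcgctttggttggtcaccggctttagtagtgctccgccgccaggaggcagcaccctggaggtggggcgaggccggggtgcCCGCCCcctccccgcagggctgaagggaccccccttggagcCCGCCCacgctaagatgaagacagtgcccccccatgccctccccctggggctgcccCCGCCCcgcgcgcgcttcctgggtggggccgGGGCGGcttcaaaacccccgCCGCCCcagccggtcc
Tgfb2: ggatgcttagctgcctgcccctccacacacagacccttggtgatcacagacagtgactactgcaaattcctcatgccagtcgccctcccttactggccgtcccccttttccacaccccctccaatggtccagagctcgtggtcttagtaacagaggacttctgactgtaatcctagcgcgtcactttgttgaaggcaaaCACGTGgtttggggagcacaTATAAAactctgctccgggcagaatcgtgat

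The *Tgfb1* window holds 75.2% G and C and 5 matches to GGGCGG, a number reached by 1.93% of the 32851 promoter windows in the reference table, and no match to TATAAA. The *Tgfb2* window holds 53.6% G and C, with 1 match to TATAAA beginning 31 bases before the start and 1 match to CACGTG beginning 51 bases before it. TATAAA occurs in 12.4% of all windows and CACGTG in 6.02%. The sequence CAGAC, which SMAD proteins can bind and which is found in 42.2% of windows, has 2 matches in the *Tgfb2* window and 0 in that of *Tgfb1*. Neither window holds the cAMP response element TGACGTCA (1.55% of windows). These are matches of letters and were not tested as binding sites.

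The depth of the libraries was 7966963 to 15295230 counts with vehicle and 7381211 to 16022459 with INT-767. Levels are given as CPM, the counts of a gene relative to the TMM-scaled library size. Some libraries stood apart from their group. Vehicle mice 1 and 7 deviated from the vehicle mean in the same genes (r = 0.74 across genes, which are not independent replicates), and their deviations resembled those of INT-767 mouse 4 from its own group (r = 0.70 and 0.665) and, less closely, those of INT-767 mouse 2 (r = 0.43 and 0.38). The deviations of INT-767 mice 2 and 4 had an r of only 0.17 with each other. Other mice were alike across groups too: vehicle mice 5 and 6 had r = 0.58 and 0.54 with INT-767 mouse 1, and 0.55 and 0.48 with INT-767 mouse 3. The libraries also differed in how they followed the GC content of genes. Here deviations were taken from the mean of all 11 mice, so they include any difference between the groups. Spearman's rho across genes was -0.42 in vehicle mouse 1 and between 0.30 and 0.44 in vehicle mice 3 to 6, while the 4 treated mice lay between -0.26 and -0.06. Log2 fold changes are therefore also given without vehicle mice 1 and 7 and INT-767 mice 2 and 4. That fit rests on vehicle mice 2 to 6 and INT-767 mice 1 and 3 only. A further fit had an offset for how each library followed GC content and gene length. The offset was also taken against the mean of all 11 mice, so it can take out part of a difference between the groups. Labels give no batch, and they do not say whether mice were processed together.

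By edgeR's quasi-likelihood test with Benjamini-Hochberg adjustment over 13880 genes, 4 of the 10 genes were lower in INT-767-treated livers at an adjusted *p* under 0.05: *Tgfb2*, *Tgfb3*, *Tgfbr2* and *Ltbp3*. Of all tested genes, 4.68% were called lower and 9.72% in either direction. Called higher were 0 of the 10, against 5.04% of all tested genes, and before adjustment 7 were lower and 0 higher at *p* under 0.05, against 15.6% and 17.4%. DESeq2 called 5 lower (9.86% of all genes) and 0 higher (10.4%), and limma-voom 2 lower (3.94%) and 0 higher (4.16%). The median log2 fold change of INT-767 over vehicle was -0.77 over the 10 genes and -0.01 over all tested genes. All 10 passed the filter on low counts. Leaving out vehicle mouse 1 and INT-767 mouse 2 together left 1 called lower, where 1.56% of all genes tested in that fit were called lower, and leaving out vehicle mice 1 and 7 and INT-767 mice 2 and 4 left 3, where the share was 6.12%.

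**Figure D1:**
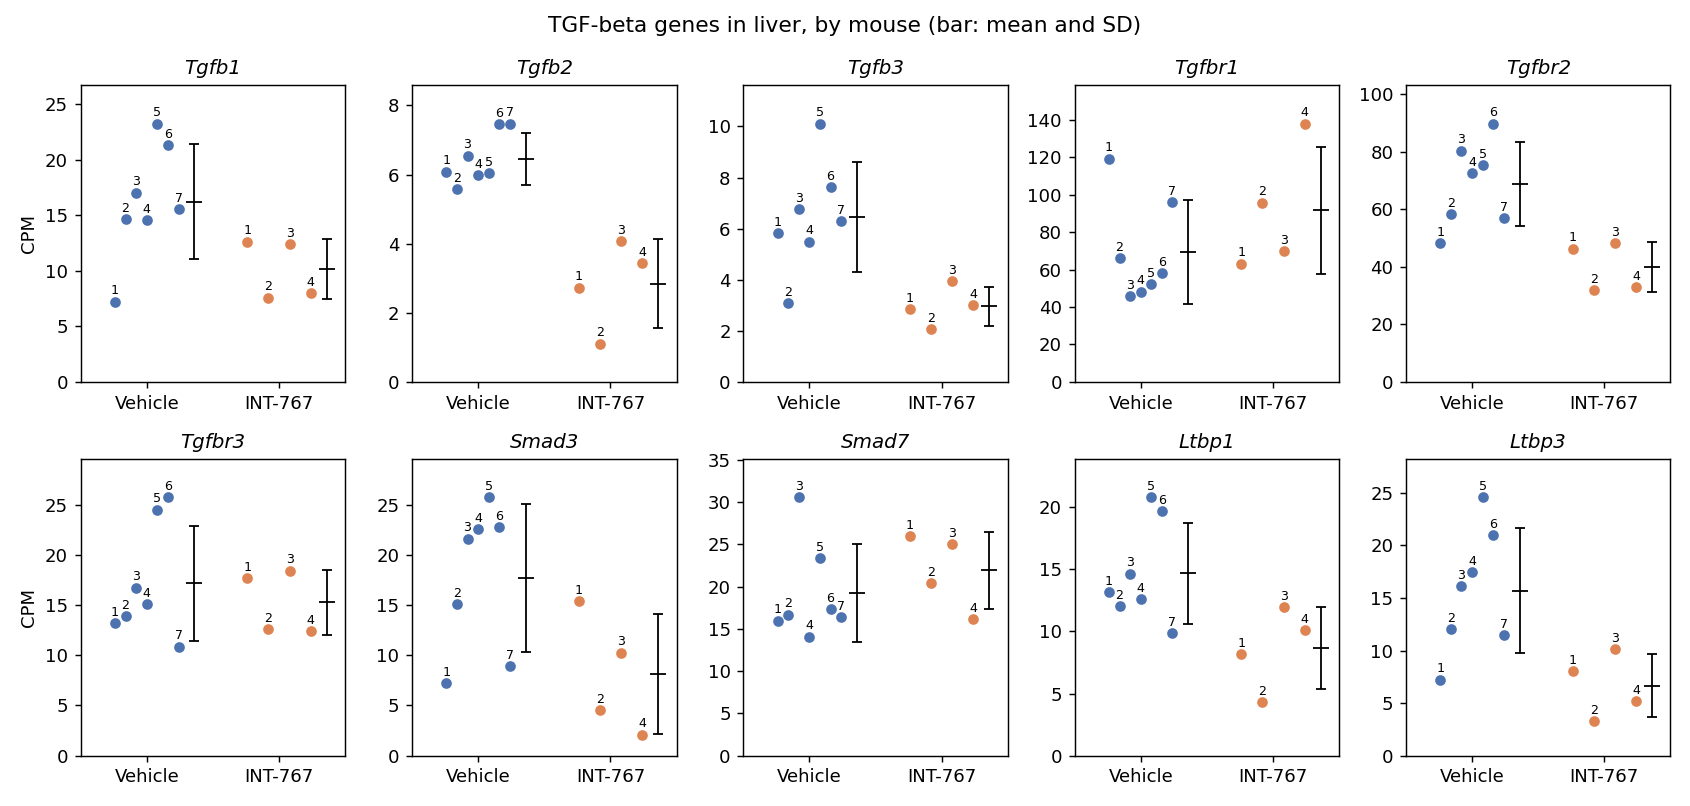
CPM of the 10 genes in each liver (vertical axes, linear from 0), with 7 vehicle mice in blue and 4 INT-767-treated mice in orange, numbered by mouse, and the mean and SD of each group as a bar. *Tgfb2* and *Tgfbr2* show no treated mouse above a vehicle mouse, and vehicle mouse 1 lies low for *Tgfb1*, *Smad3* and *Ltbp3*.

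*Tgfb2* had the clearest separation of the ligands. Its level in the vehicle livers was between 5.57 and 7.47 CPM with a median of 6.09. In INT-767-treated mice 1 to 4 it was 2.73, 1.11, 4.08 and 3.45 CPM. Every treated mouse therefore lay below every vehicle mouse, as in 3.65% of all tested genes. Expression fell by 1.17 on the log2 scale (SE 0.27, edgeR adjusted *p* = 0.0223), from 6.45 ± 0.750 CPM (SD, n = 7) to 2.84 ± 1.28 CPM (SD, n = 4), and the exact two-sided Mann-Whitney *p* was 0.00606, the smallest that 4 against 7 mice allow without ties. After adjustment over all tested genes the smallest Mann-Whitney *p* of any gene was 0.0807. *Tgfb2* was called in each of the 11 fits that left out 1 mouse, although the lowest treated value rests on 8 counts. Without the 4 libraries that stood apart its log2 fold change was -0.93 (edgeR adjusted *p* = 0.0379), and with the offset it was -0.97 (edgeR adjusted *p* = 0.0326).

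*Tgfb3* was also lower, but its groups overlapped. Vehicle livers lay between 3.08 and 10.1 CPM with a median of 6.31, and treated livers at 2.86, 2.07, 3.94 and 3.00 CPM. Vehicle mouse 2, the lowest of its group, fell among the treated mice, and vehicle mouse 5 was the highest. The log2 fold change was -1.12 (SE 0.30, edgeR adjusted *p* = 0.0348, exact Mann-Whitney *p* = 0.0121). This call held in 4 of the 11 fits that left out 1 mouse, and without the 4 libraries that stood apart the value was -0.99 (edgeR adjusted *p* = 0.119). With the offset it was -0.92 (edgeR adjusted *p* = 0.0378). Genes annotated on the opposite strand overlap 12.4% of the exon bases of *Tgfb3*, and whether reads were counted by strand is not given in the sources used here. Of those genes, *Gm37804* had 0 counts in the 11 livers and *Gm48008* is not analysed here.

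*Tgfb1*, the isoform most studied in liver fibrosis, did not pass the test. Vehicle livers ranged from 7.23 to 23.3 CPM with a median of 15.5, and treated livers were at 12.6, 7.60, 12.4 and 8.02 CPM. Vehicle mouse 1, at 7.23 CPM, was below all 4 treated mice, whereas the other 6 vehicle mice were above them. The log2 fold change was -0.68 (SE 0.28, edgeR adjusted *p* = 0.119, exact Mann-Whitney *p* = 0.0727). Without vehicle mouse 1 it was -0.80 with an edgeR adjusted *p* of 0.0258, the single mouse whose removal moved this gene past the threshold. Without the 4 libraries that stood apart it was -0.53 (edgeR adjusted *p* = 0.107), and with the offset -0.58 (edgeR adjusted *p* = 0.117).

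Whether the isoforms responded differently was tested on their ratios within each mouse, which do not depend on the scaling of the library. The mean log2 ratio of *Tgfb1* to *Tgfb2* counts was 1.26 ± 0.521 in the 7 vehicle mice and 1.93 ± 0.662 (SD) in the 4 treated mice. The difference of 0.67 gave an exact two-sided permutation *p* of 0.103, or 0.304 after Benjamini-Hochberg adjustment over the 3 pairs of isoforms. *Tgfb1* to *Tgfb3* went from 1.32 ± 0.565 to 1.75 ± 0.308, a difference of 0.43 (exact permutation *p* = 0.203, adjusted 0.304). *Tgfb2* to *Tgfb3* went from 0.07 ± 0.469 to -0.17 ± 0.477, a difference of -0.24 (exact permutation *p* = 0.400, adjusted 0.400). The calls of *Tgfb2* and *Tgfb3* and the missed call of *Tgfb1* are thus not shown to be a difference between isoforms. Without vehicle mouse 5 the unadjusted exact permutation *p* of the first ratio was 0.0476, and without INT-767 mouse 4 it was 0.0333. For *Tgfb1* to *Tgfb3* it was 0.0190 without vehicle mouse 2, whereas without vehicle mouse 1 the difference was 0.26 (exact permutation *p* = 0.290). The difference in the ratio of *Tgfb1* to *Tgfb2* was 0.41 without INT-767 mouse 2, 0.24 without vehicle mouse 1 and INT-767 mouse 2, and 0.39 without the 4 libraries that stood apart, and that in *Tgfb2* to *Tgfb3* was -0.004 without INT-767 mouse 2.

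Levels of different genes were compared per length, as RPKM over all exon bases of the gene. *Tgfb1* was the most abundant ligand in vehicle livers at 3.22 ± 1.03 RPKM, followed by *Tgfb3* at 1.91 ± 0.633 and *Tgfb2* at 1.11 ± 0.130 (SD, n = 7). With INT-767 the same order held, at 2.02 ± 0.541, 0.877 ± 0.227 and 0.491 ± 0.222 RPKM (SD, n = 4). The summed level of the ligands was 6.24 ± 1.58 RPKM with vehicle and 3.38 ± 0.882 with INT-767. Of this sum *Tgfb1* made up 50.9% ± 8.22 and 59.8% ± 6.74, *Tgfb2* 18.6% ± 4.00 and 14.1% ± 4.83, and *Tgfb3* 30.5% ± 6.60 and 26.1% ± 2.85. The share of *Tgfb1* depends on the length used: by the longest protein-coding transcript, 2175 bases in place of 5042, it was 69.2% ± 7.53 and 76.6% ± 5.19, in the same order of ligands.

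**Figure D2:**
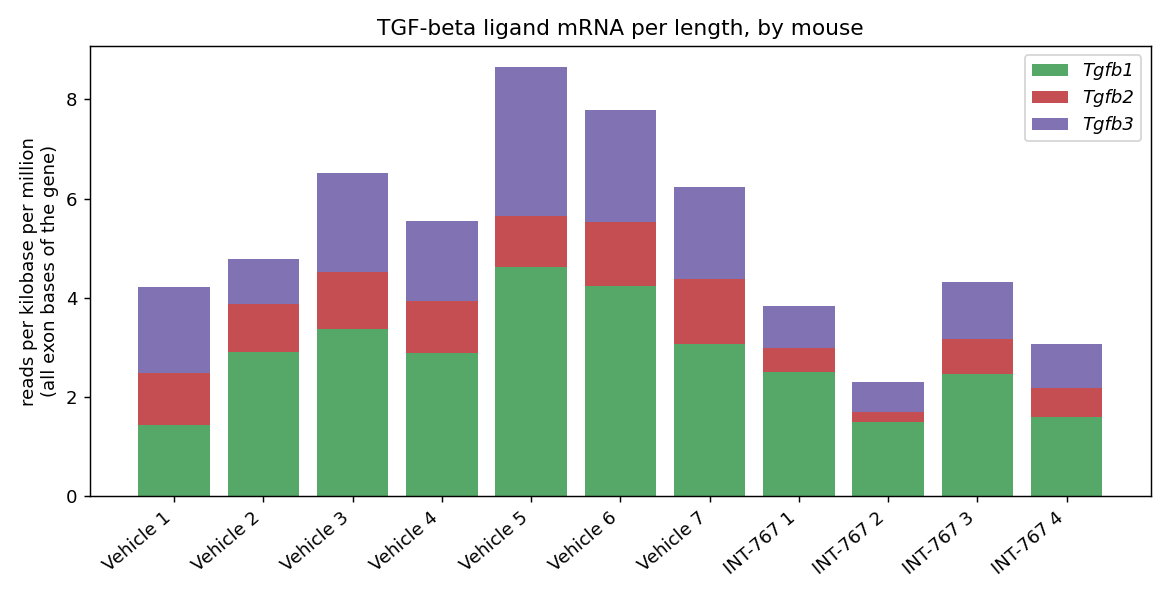
RPKM over exon bases (vertical axis, linear from 0) of *Tgfb1*, *Tgfb2* and *Tgfb3*, stacked for each of the 7 vehicle and 4 INT-767-treated livers. The summed level runs from 4.21 to 8.64 with vehicle and from 2.31 to 4.33 with INT-767, so that vehicle mouse 1 overlaps the treated range.

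Of the receptors, *Tgfbr2* (chr9:116084293-116175360), which binds the ligand first, was lower with INT-767. Vehicle livers lay between 48.3 and 89.7 CPM with a median of 72.5, and treated livers were at 46.3, 31.9, 48.3 and 32.9 CPM. No treated mouse exceeded a vehicle mouse, as in 3.65% of all tested genes, but INT-767 mouse 3 and vehicle mouse 1 were level at 48.3 CPM. On the log2 scale the fold change was -0.79 (SE 0.20, edgeR adjusted *p* = 0.0302, exact Mann-Whitney *p* = 0.00606), from 68.8 ± 14.7 to 39.9 ± 8.65 CPM. *Tgfbr2* was called in 5 of the 11 fits that left out 1 mouse. Its log2 fold change was -0.66 without the 4 libraries that stood apart (edgeR adjusted *p* = 0.0285). With the GC content and length offset it shrank to -0.34 and was no longer called (edgeR adjusted *p* = 0.0815).

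*Tgfbr1* (chr4:47353222-47414931), the signalling type I receptor, did not follow *Tgfbr2*. Its level was 46.0 to 119 CPM with vehicle, with a median of 57.9, and 63.2, 95.8, 69.8 and 138 CPM with INT-767, and the groups overlapped over most of their range. Its log2 fold change was 0.40 (SE 0.30, edgeR adjusted *p* = 0.340), 0.13 without INT-767 mouse 4, 0.30 without the 4 libraries that stood apart and 0.31 with the offset. It has the lowest GC content of the 10 genes, 41.0% of its longest transcript. *Tgfbr3* (chr5:107106570-107289629), the co-receptor betaglycan that presents TGF-beta2, had 10.9 to 25.7 CPM with vehicle (median 15.1) and 17.7, 12.6, 18.4 and 12.4 CPM with INT-767. Its log2 fold change was -0.17 (SE 0.25, edgeR adjusted *p* = 0.642), without the 4 libraries it was -0.09, and with the offset the sign turned, to 0.18. Without vehicle mouse 6 it was -0.05, and without vehicle mouse 7 it was -0.26.

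*Smad3* (chr9:63646767-63757994), the receptor-regulated SMAD that carries the signal to the nucleus, had the largest standard error of the 10 genes. Vehicle livers ranged from 7.23 to 25.7 CPM with a median of 21.6, and treated livers were at 15.4, 4.56, 10.3 and 2.10 CPM. Vehicle mice 1 and 7 were low, at 7.23 and 8.93 CPM, and INT-767 mouse 1 lay above vehicle mouse 2. The log2 fold change of -1.12 thus had an SE of 0.50 and did not pass the test (edgeR adjusted *p* = 0.140, exact Mann-Whitney *p* = 0.109). Without the 4 libraries that stood apart it was -0.71 (SE 0.22, edgeR adjusted *p* = 0.0511), and with the offset -0.84 (edgeR adjusted *p* = 0.128). *Smad3* was lowest in mice where *Tgfbr1* was highest: INT-767 mice 4 and 2 and vehicle mice 1 and 7 hold both the 4 lowest values of *Smad3* and the 4 highest values of *Tgfbr1*. These are the libraries that stood apart, and the part of the libraries in this pattern was not tested.

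**Figure D3:**
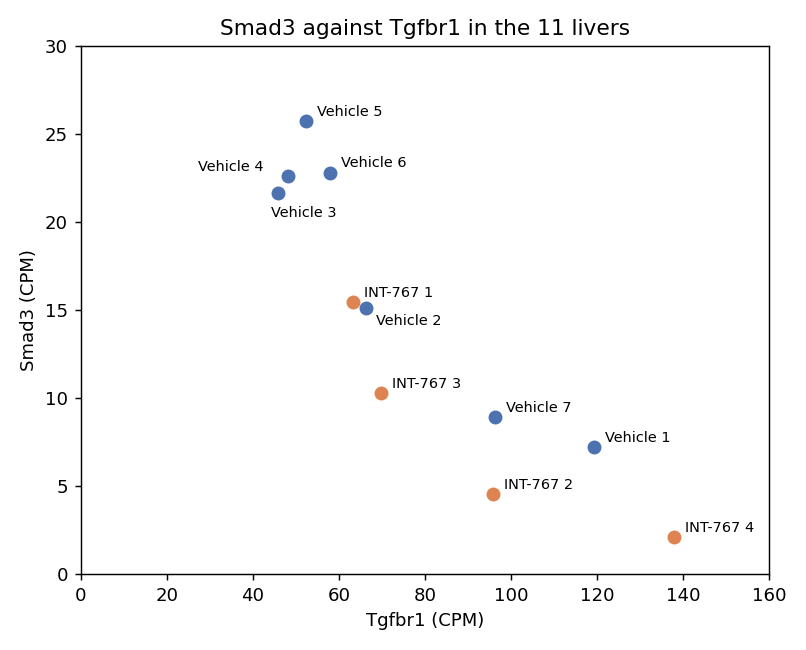
*Smad3* (vertical axis) against *Tgfbr1* (horizontal axis), both in CPM on linear axes from 0, one point per liver, vehicle in blue and INT-767 in orange. Vehicle mice 3 to 6 sit at 21.6 to 25.7 CPM of *Smad3* and 46.0 to 57.9 CPM of *Tgfbr1*, and the 4 livers at the lower right come from both groups.

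*Smad7*, the inhibitory SMAD, had 14.1 to 30.6 CPM with vehicle (median 16.7) and 25.99, 20.5, 25.1 and 16.2 CPM with INT-767, within the range of the vehicle mice. Its log2 fold change was 0.19 (SE 0.22, edgeR adjusted *p* = 0.552), and 0.48 with the GC content and length offset (edgeR adjusted *p* = 0.0814). It was 0.33 without the 4 libraries that stood apart, 0.10 without INT-767 mouse 1 and 0.33 without vehicle mouse 3. When libraries were scaled by size only, which shifts the median of all genes to -0.22, it was -0.01.

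Both latent TGF-beta binding proteins were lower on average, and *Ltbp3* passed the test. *Ltbp3* (chr19:5740904-5758532) lay between 7.23 and 24.6 CPM with vehicle, with a median of 16.1, and at 8.07, 3.32, 10.1 and 5.17 CPM with INT-767. Vehicle mouse 1 was lower than INT-767 mice 1 and 3, and the other 6 vehicle mice were above all treated mice. INT-767 over vehicle gave a log2 fold change of -1.24 (SE 0.36, edgeR adjusted *p* = 0.0476, exact Mann-Whitney *p* = 0.0242). That call is just inside the threshold: it held in 3 of the 11 fits that left out 1 mouse, and limma-voom gave an adjusted *p* of 0.0552. With the offset the value was -0.82 and stayed called (edgeR adjusted *p* = 0.0277), and without the 4 libraries that stood apart it was -1.01 (edgeR adjusted *p* = 0.0278).

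*Ltbp1* (chr17:75005568-75392512) had 9.87 to 20.8 CPM with vehicle (median 13.2) and 8.20, 4.28, 11.97 and 10.1 CPM with INT-767. Vehicle mouse 7 lay below INT-767 mice 3 and 4, so that the groups overlapped. Its fold change on the log2 scale was -0.76 (SE 0.28, edgeR adjusted *p* = 0.0897, exact Mann-Whitney *p* = 0.0242), DESeq2 called it with an adjusted *p* of 0.0429, without the 4 libraries that stood apart it was -0.69, and with the offset -0.31.

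**Figure D4:**
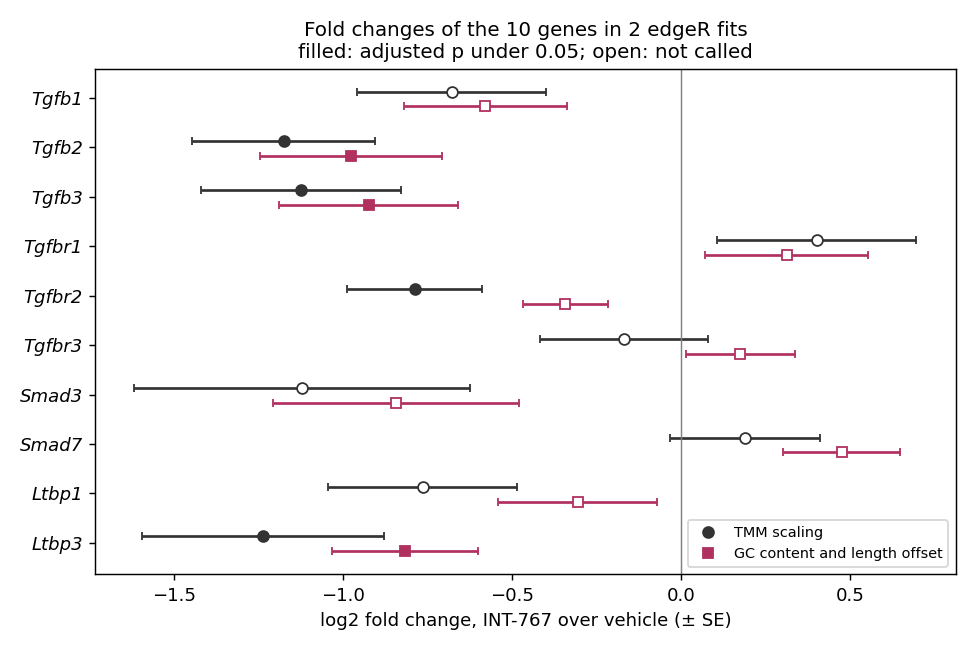
Log2 fold change of INT-767 over vehicle with its SE (horizontal axis) for the 10 genes, from the fit with TMM scaling (circles) and from the fit with the GC content and length offset (squares), filled where the edgeR adjusted p is under 0.05. *Tgfb2*, *Tgfb3* and *Ltbp3* are filled in both fits, *Tgfbr2* moves from -0.79 to -0.34, and *Tgfbr3* changes sign.

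Per length over exon bases, *Tgfbr1* (10.6 ± 4.26 RPKM) and *Tgfbr2* (8.40 ± 1.80 RPKM) were the highest of the 10 genes in vehicle livers, and these neighbours did not differ beyond their SD. *Smad7* followed at 4.25 ± 1.28 RPKM, and *Tgfb1*, *Smad3* and *Tgfbr3* between 2.62 and 3.22 RPKM were within an SD of each other. *Tgfb3*, *Ltbp3*, *Ltbp1* and *Tgfb2* were the lowest, from 1.91 down to 1.11 RPKM. Below the receptors this order depends on the length used: by the longest protein-coding transcript *Tgfb1* (7.47 RPKM) was above *Smad7* (4.49 RPKM), and *Ltbp3* (3.03 RPKM) above *Tgfbr3* (2.82 RPKM). With INT-767, *Tgfbr1* stood at 14.03 ± 5.18 RPKM and *Tgfbr2* at 4.87 ± 1.06 RPKM (SD, n = 4).

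The genes whose level over the 11 mice was most like that of each ligand were found by Pearson's r of log2 CPM after subtraction of group means, as a description. For *Tgfb1* they were *Atp13a2* (r = 0.97) and *Csnk1e* (0.96). For *Tgfb2* they were *Aplp1* (0.96), *Ms4a14* (0.95) and *B4galt6* (0.94), and for *Tgfb3* *Dzip1l* (0.95), *Fcer1g* (0.95) and *Apobec3* (0.94). Among the 10 genes, *Tgfb1* varied most like *Ltbp3* (r = 0.90) and *Tgfbr2* (0.86) and opposite to *Tgfbr1* (-0.76), whereas *Tgfb1* and *Tgfb2* had an r of 0.33. All these values share the same libraries and their differences in depth and base composition.

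Other lists of pathway genes are read against the 4.68% of all tested genes called lower and the 5.04% called higher, and no test compared the lists. A list of 19 other latency genes holds relatives of the latent TGF-beta binding proteins, microfibril proteins and activators. Of these 18 were tested, 5 were called lower and 0 higher by edgeR, with a median log2 fold change of -0.79. *Thbs1*, the latent TGF-beta activator thrombospondin 1, fell from 11.2 ± 2.62 to 4.74 ± 1.65 CPM (log2 fold change -1.23, edgeR adjusted *p* = 0.0122). Its groups did not overlap, with INT-767 lower, as in 3.65% of all tested genes. *Fbn1* and *Fbn2*, fibrillins of the microfibrils that hold latent complexes, had log2 fold changes of -1.23 and -2.54 (edgeR adjusted *p* = 0.0486 and 0.0239). *Mmp2*, a gelatinase, fell by 1.14 on the log2 scale (edgeR adjusted *p* = 0.0331). *Ltbp2*, which despite its name is not known to bind latent TGF-beta, fell by 2.22 (edgeR adjusted *p* = 0.0339).

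Of 18 other ligands of the family 15 were tested, 1 was called lower and 0 higher, with a median of -0.23, where 4.68% of all tested genes were called lower. The gene called was *Inhbe*, the activin E subunit made by hepatocytes, which fell from 82.8 ± 26.1 to 36.8 ± 13.4 CPM (log2 fold change -1.17, edgeR adjusted *p* = 0.0301). Among the other receptors and co-receptors, 12 of 15 were tested and 0 were called by edgeR in either direction, with 4 lower and 1 higher at an unadjusted *p* under 0.05 (15.6% and 17.4% of all tested genes) and a median of -0.29. The highest of these in mean CPM over the 11 mice, which takes no account of gene length, were the BMP co-receptor *Hfe2* and the BMP type II receptor *Bmpr2*, with 90.7 ± 12.7 and 64.5 ± 24.4 CPM in vehicle livers and 107.5 ± 22.6 and 100.5 ± 49.1 CPM in treated livers. *Eng*, the co-receptor endoglin, was above *Bmpr2* in vehicle livers, at 70.3 ± 23.5 CPM, and at 46.5 ± 11.04 CPM in treated livers (log2 fold change -0.60, edgeR adjusted *p* = 0.147).

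Of 16 genes of signal transduction 1 was called higher and 0 lower, with a median of -0.21, where 5.04% of all tested genes were called higher. That gene was *Zfyve9*, also known as SARA, which presents SMAD2 and SMAD3 to the receptor. It was at 35.5 ± 5.34 CPM with vehicle and 55.7 ± 7.76 CPM with INT-767 (log2 fold change 0.65, edgeR adjusted *p* = 0.0209). Its groups did not overlap, with INT-767 higher, as in 3.87% of all tested genes. The groups of *Fkbp1a* in this list did not overlap either, but with INT-767 lower (3.65% of all tested genes). *Fkbp1a* was at 108.4 ± 3.83 and 96.05 ± 5.52 CPM (log2 fold change -0.17, edgeR adjusted *p* = 0.262). Of 22 genes that inhibit TGF-beta family signals or turn over pathway proteins, some of which promote signalling, 17 were tested and 3 were called lower, 0 higher, with a median of -0.13. *Pmepa1*, itself induced by TGF-beta, fell by 0.89 on the log2 scale (edgeR adjusted *p* = 0.0307). The matrix proteoglycans *Bgn* and *Fmod*, which bind TGF-beta, fell by 1.10 and 1.60 (edgeR adjusted *p* = 0.0467 and 0.0461).

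Of 22 genes known to be induced by TGF-beta 21 were tested, 3 were called lower and 0 higher, and the median was -0.80. *Ctgf*, the matricellular connective tissue growth factor, went from 47.2 ± 5.48 to 23.8 ± 7.87 CPM (log2 fold change -0.99, edgeR adjusted *p* = 0.0129). The type I collagen chains *Col1a1* and *Col1a2* had log2 fold changes of -2.96 and -2.35 (edgeR adjusted *p* = 0.0297 and 0.0272). In each of these 3 genes the groups did not overlap, with INT-767 lower, as in 3.65% of all tested genes. Among 6 targets of BMP signalling 0 were called by edgeR in either direction, also at an unadjusted *p* under 0.05, and the median was 0.07. *Hamp*, which encodes hepcidin, was at 146.8 ± 71.5 CPM with vehicle and 319.8 ± 201 CPM with INT-767 (log2 fold change 1.12, SE 0.54, edgeR adjusted *p* = 0.162). *Id2* was at 133.9 ± 44.6 and 174.7 ± 50.3 CPM.

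**Figure D5:**
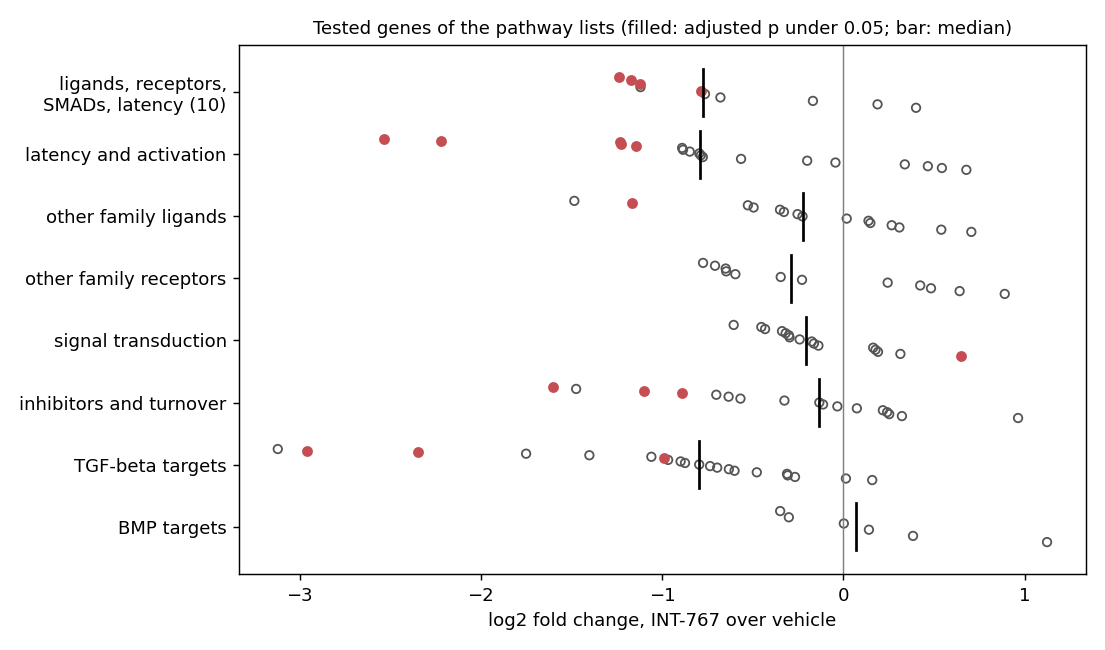
Log2 fold change of INT-767 over vehicle (horizontal axis) of each tested gene, in rows by role in the pathway, filled where the edgeR adjusted p is under 0.05, with a bar at the median of each list. Medians are -0.77 for the 10 genes, -0.79 for latency and activation and -0.80 for TGF-beta targets, and between -0.29 and 0.07 for the remaining lists.

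Summed over each list, markers of most liver cell types were lower on average with INT-767, and those of mesothelium and hepatocytes were higher. Calls of single markers are read against the same shares of all tested genes, 4.68% lower and 5.04% higher, and at an unadjusted *p* under 0.05 15.6% and 17.4%. In whole liver, fewer cells of a type and less RNA per cell cannot be told apart. The summed level of 11 myofibroblast markers was 792 ± 349 CPM with vehicle and 353 ± 184 CPM with INT-767, with 3 of 11 called lower, 0 higher and a median log2 fold change of -0.87. The 3 called were *Col1a1*, *Col1a2* and *Mmp2*. Of these markers all but *Lum* are also on the lists above, *Mmp2* with the latency genes and the rest with the TGF-beta targets. The marker list and the target list are therefore largely the same genes. For most marker lists the gene with the highest mean CPM over the 11 mice is also named, which need not lead in each group. Here it was *Col3a1*, at 289 ± 126 and 109 ± 66.5 CPM (edgeR adjusted *p* = 0.0516), and in treated livers *Lum*, at 90.8 ± 43.4 and 128 ± 97.5 CPM, was above it.

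Markers of quiescent stellate cells summed to 395 ± 105 and 349 ± 62.4 CPM, with *Pdgfrb* called lower among 9 tested, 5 of the 9 below 0 on the log2 scale, a median log2 fold change of -0.39 and *Reln* the highest over all mice, at 112 ± 44.2 and 69.1 ± 23.1 CPM. With INT-767, *Rgs5* (67.3 ± 17.1 and 91.5 ± 39.4 CPM) and *Ecm1* (65.4 ± 29.98 and 75.0 ± 33.4 CPM) were above *Reln*. Macrophage markers summed to 924 ± 147 and 693 ± 343 CPM, with *Cd68* and *Csf1r* called lower among 12, 11 of the 12 below 0, 6 lower at an unadjusted *p* under 0.05, a median of -0.59 and *Lyz2* the highest over all mice (282 ± 106 and 214 ± 124 CPM), level with *Cd5l* in treated livers (219.5 ± 34.8 and 215 ± 127 CPM). Sinusoidal endothelial markers summed to 361 ± 102 and 256 ± 49.0 CPM with 0 of 10 called by edgeR and 3 lower at an unadjusted *p* under 0.05, led by *Ptprb* at 68.9 ± 11.7 and 54.3 ± 7.34 CPM. These are cell types known to express TGF-beta ligands or receptors.

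Cholangiocyte markers summed to 1083 ± 467 and 788 ± 432 CPM, mostly *Spp1* (996 ± 459 and 733 ± 420 CPM), and *Ehf* was called lower among 8. All 8 had a log2 fold change below 0, 5 of them at an unadjusted *p* under 0.05, with a median of -0.62. Lymphocyte, neutrophil and platelet markers were scarce, at 8.11 ± 3.89, 14.5 ± 1.90 and 9.18 ± 1.49 CPM with vehicle and 5.74 ± 1.59, 12.1 ± 11.1 and 5.90 ± 1.73 CPM with INT-767. Of the neutrophil list 3 markers were tested, with a median log2 fold change of 0.31, and *Csf3r* was called lower. The others, *S100a8* and *S100a9*, went the other way without being called (log2 fold change 0.31 and 0.46). Over all mice the highest neutrophil and platelet markers were *S100a9* (4.09 ± 1.23 and 5.48 ± 6.9 CPM) and *Itga2b* (4.01 and 2.89 CPM). In vehicle livers *Csf3r* (5.88 and 2.09 CPM) was above *S100a9*. The summed neutrophil level was 28.6 CPM in INT-767 mouse 4 and between 4.22 and 8.29 CPM in the other treated mice.

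Mesothelial markers were at 7.87 ± 3.87 CPM with vehicle and 14.3 ± 2.65 CPM with INT-767, with *Lrrn4* called higher (1.39 and 5.48 CPM). *Wt1* was the highest over all mice at 3.24 and 2.86 CPM, but in treated livers it was below *Lrrn4* and *Upk3b* (1.21 and 3.40 CPM). Hepatocyte markers, which check the labelled tissue, were abundant in every library and summed to 72930 ± 7344 CPM with vehicle and 103200 ± 16070 CPM with INT-767. *Alb* was at 43060 ± 4297 CPM with vehicle and 63910 ± 19490 CPM with INT-767. Of the 10 markers 0 were called by edgeR, with 5 higher and 0 lower at an unadjusted *p* under 0.05 and a median log2 fold change of 0.34. None of the markers in the table was at 0 in all 11 mice. The part of cell composition in the values of the 10 TGF-beta genes was not tested.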

How the data were processed

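Liver mRNA of 7 vehicle and 4 INT-767-treated mice was grouped by the sample labels. The authors prepared stranded libraries, sequenced 75 cycles, aligned with STAR (2.4.0 per the submitters' processing notes, 2.5.2a per the supplementary methods) to GRCm38 with Ensembl release 84, and deposited raw read counts for 46603 genes, without normalization. Which program counted the reads, and with what strand setting, is not given in the sources used here. Nothing says how libraries were batched. Replicates are separate mice. No pair of libraries agreed within sampling noise (closest pair, median chi-square per gene 1.11).

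The 10 genes and all gene lists were chosen with earlier results of these data known. Named beside the 10 were the called genes of each pathway list (up to 6 by smallest *p*) or else the 2 most abundant, the 3 genes most like each ligand, and the most abundant and the called genes of each marker list. The called marker genes were added after their values were seen. A few genes that this rule names are left out of the text, and some others, such as *Fkbp1a*, were added after their values were seen.

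Counts were tested with edgeR 4.0.16 in R 4.3.3 (TMM factors 0.844 to 1.14, filterByExpr with its default minimum of 10 counts and 15 in total, glmQLFit with robust estimation, glmQLFTest, treatment as the only term, Benjamini-Hochberg over 13880 genes, threshold 0.05). SE is the absolute log2 fold change over the square root of F. Single genes were compared by exact two-sided Mann-Whitney tests and isoform log2 ratios (0.5 added to counts) by exact permutation over all 330 assignments of 4 of 11 mice. Exon length, GC content and overlaps come from GENCODE M21. RefSeq promoter windows were looked up for 9 of the 10 genes, of which 7 matched. Alternatives were limma-voom (limma 3.58.1), DESeq2 1.42.0, other scalings and filters, a replicate block, a GC content and length offset (lowess, span 0.3) and leaving out mice. Leaving out libraries that stood apart, and the longest protein-coding transcript, were chosen after seeing the data. On simulated data with 200 of 13880 genes changed by 2 on the log2 scale, the share of changed genes found was 92.5% by edgeR with 12 false calls, 91% by limma-voom with 12, and 94.5% by DESeq2 with 42. That change is larger than the one estimated for any of the 10 genes, and the simulation held no GC content trend or likeness between libraries. These shares therefore do not say how often changes such as those of the 10 genes would be found. Depth limits precision at low counts, and without molecular identifiers reads may repeat 1 molecule. Figures were drawn with matplotlib 3.10.9.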

Additional observations from a re-analysis of the deposited data

Results flagged for a closer look

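Within the 4 INT-767-treated mice, INT-767 mouse 4 lay far from the other 3 in the summed level of macrophage markers, at 1207 CPM where the others were between 487 and 544 CPM. It also lay far from them in the summed level of neutrophil markers, at 28.6 CPM against 4.22 to 8.29 CPM. These were 2 of 46 groups of values examined in this way, and chance alone marks about 1 in 20. None of the 10 TGF-beta genes had a mouse so far from its group in either treatment. INT-767 mouse 4 had the lowest *Smad3* (2.10 CPM) and the highest *Tgfbr1* (138 CPM) of the 11 mice, and the part of its marker levels in these values was not tested.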

How the results depend on the processing

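*Tgfb1*, *Tgfb2*, *Tgfb3*, *Tgfbr1*, *Tgfbr2*, *Smad3*, *Ltbp1* and *Ltbp3* kept the direction of their log2 fold change under every alternative run. *Tgfbr3* turned to 0.034 with the replicate block, 0.18 with the GC content and length offset and 0.33 with both, and *Smad7* to -0.013 with library size only. The group medians of *Tgfbr3*, nearly level in CPM, changed order with library size only (exact Mann-Whitney *p* = 0.412) and without single mice (exact *p* 0.476 to 0.762). For *Tgfb1* the exact Mann-Whitney *p* was 0.0242 with library size only and 0.00952 without vehicle mouse 1. For *Ltbp1* it was 0.0667 without INT-767 mouse 1 or 2, and for *Ltbp3* 0.0667 without INT-767 mouse 2 or 4. Genes called lower numbered 4, but 2 with limma-voom, 1 without vehicle mouse 1 and INT-767 mouse 2, 0 at an adjusted *p* under 0.01 (passed by 245 of 13880 genes in either direction), and 1 to 5 without single mice, with 5 in the fit without vehicle mouse 1, which called 9.86% of all tested genes lower. It was 1 without each of vehicle mice 3, 4, 5 and 6 and INT-767 mice 2 and 4, where 2.76%, 2.84%, 2.11%, 1.96%, 0.767% and 3.17% of all tested genes were called lower, and 2 without INT-767 mouse 1 (5.23%).

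The mice share only numbers: deviations of same-numbered mice correlated at -0.69, 0.22, 0.15 and -0.48. With the replicate block 0 of the 10 and 0 of all tested genes were called, *Tgfb2* at -1.18, *Tgfb3* at -0.82, *Tgfbr2* at -0.70 and *Ltbp3* at -1.02, and with block and offset 0 were called, at -1.004, -0.67, -0.30 and -0.69 (edgeR adjusted *p* 0.342 to 0.547 in these 8 values). Other calls were lost for *Tgfb3* with limma-voom (-1.07), without vehicle mouse 1 and INT-767 mouse 2 (-1.04) and without all 4 libraries that stood apart (-0.99), for *Tgfbr2* with the offset (-0.34) and without vehicle mouse 1 and INT-767 mouse 2 (-0.78), and for *Ltbp3* with no filter beyond 1 count (-1.22), limma-voom (-1.25) and without vehicle mouse 1 and INT-767 mouse 2 (-1.16; the cause of these losses was not tested). *Ltbp1* was called by DESeq2 (-0.76).

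Leaving out 1 mouse at a time gave -0.80 to -0.58 for *Tgfb1*, -1.36 to -0.94 for *Tgfb2*, -1.26 to -0.99 for *Tgfb3*, -0.88 to -0.70 for *Tgfbr2*, -1.48 to -1.03 for *Ltbp3*, 0.13 (without INT-767 mouse 4) to 0.59 for *Tgfbr1*, -0.26 to -0.05 for *Tgfbr3*, -1.68 (without INT-767 mouse 1) to -0.79 for *Smad3*, 0.10 to 0.33 for *Smad7* and -0.94 to -0.56 for *Ltbp1*, with the largest edgeR adjusted *p* among the called genes 0.131 (*Tgfb3*), 0.132 (*Tgfbr2*) and 0.165 (*Ltbp3*), each without INT-767 mouse 2. The ratio of *Tgfb1* to *Tgfb2* differed by 0.41 to 0.91 that of *Tgfb1* to *Tgfb3* by 0.26 to 0.59 and that of *Tgfb2* to *Tgfb3* by -0.37 to -0.004. Over all tested genes 700 were higher and 649 lower, and 331 and 1026 with library size only, 1443 and 1368 with DESeq2, 467 and 812 with upper-quartile factors, 1069 and 826 with the offset, 1906 and 1370 without vehicle mouse 1, and 164 and 110 without INT-767 mouse 2. Vehicle levels per length rose with the longest transcript and the longest protein-coding transcript to 6.31 and 7.47 RPKM for *Tgfb1*, 1.26 and 1.26 for *Tgfb2*, 2.20 and 2.20 for *Ltbp1* and 2.74 and 3.03 for *Ltbp3*. A minimum of 10 counts in every mouse gave no value for *Tgfb2*, whose smallest count was 8, a depth at which counting error is large.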
